A study of Mus musculus with 12 samples.

Results

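The mitosis genes are 34 listed genes that act in G2 and M phase, from entry into mitosis to the final separation of daughter cells, and they were followed across 12 RNA sequencing libraries of 4T1 cells. All 34 were among the 16283 genes of the deposited count table, and all 34 passed the filter on low counts that left 13601 genes for testing. Members were taken by name from a list of known mitosis genes, and no threshold on a measured value was used. The list was chosen with earlier results of these data known. 4T1 is a metastatic mammary carcinoma line from the BALB/c mouse strain, grown here in culture. The cells carried an sgRNA against Rosa26, labelled as control, or an sgRNA against Cebpd (sgRNA1 or sgRNA2), labelled as Cebpd knockout. Each of the 3 lines was given vehicle or IFN-gamma at 20 ng/ml for 24 hours, with 2 libraries in each of the 6 groups. IFN-gamma is a cytokine made by activated lymphocytes, and Cebpd encodes the transcription factor C/EBP delta. Whether a line was a clone or a pool, and how the Cas9 nuclease was delivered, is not given in these sources. The labels do not tell whether paired libraries were grown as separate cultures. The p-values therefore measure only the spread between these libraries, and that spread may be technical.

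A dividing cell copies its DNA in S phase and separates the copies in M phase. Cyclin B and CDK1 drive entry into mitosis, Plk1 and the aurora kinases build and correct the spindle, and kinetochores tie each chromosome to spindle fibres. The spindle checkpoint holds the cell until all chromosomes are attached, after which the anaphase-promoting complex (APC/C) with Cdc20 marks cyclin B and securin for destruction. Transcripts of these genes peak in G2 and M phase, so in bulk RNA a lower level from fewer cells in mitosis and a lower level from less RNA per mitotic cell cannot be told apart.

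Cebpd itself, counted over the whole gene, stood at 9.09 and 7.13 CPM (counts relative to the scaled library size) in control vehicle, 13.6 and 13.4 in sgRNA1 vehicle, and 10.6 and 8.51 in sgRNA2 vehicle. With IFN-gamma it stood at 53.5 and 49.1 CPM in control, 45.9 and 45.6 in sgRNA1, and 30.2 and 29.4 in sgRNA2. In vehicle its transcript was higher than control with sgRNA1 (log2 difference 0.74 ± 0.12 SE, edgeR adjusted p = 5.53e-05) and did not pass the test with sgRNA2 (0.24 ± 0.13, adjusted p = 0.101). With IFN-gamma it was lower past the test in sgRNA2 only (log2 difference -0.78 ± 0.09 SE, edgeR adjusted p = 3.03e-07, against -0.17 ± 0.08 and adjusted p = 0.0917 for sgRNA1). Transcript counts do not show a small edit, so the lines are named here by their labels. Library totals lay between 16912710 and 24784371 counts. The 34 genes took 0.680% and 0.673% of all counts in control vehicle, 0.630% and 0.637% in sgRNA1-labelled vehicle, and 0.656% and 0.657% in sgRNA2-labelled vehicle. With IFN-gamma they took 0.766% and 0.771% in control, 0.651% and 0.665% in sgRNA1-labelled cells, and 0.595% and 0.603% in sgRNA2-labelled cells. All 6 mammary epithelial markers checked (Epcam, Krt7, Krt8, Krt18, Krt19 and Cdh1) were present, with a summed level of 2602 to 4057 CPM. Of 6 fibroblast markers 2 were in the table (14.1 to 32.2 CPM in sum), of 6 leukocyte markers 3 (0.617 to 9.59 CPM), of 4 endothelial markers 2 (0 to 0.483 CPM), and of 3 erythroid markers 0. The upper ends for fibroblast and leukocyte markers lay in sgRNA2 vehicle.

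Many mitosis genes carry a CHR (cell cycle genes homology region) in their promoters, an element bound by the MuvB complex, often with CCAAT boxes bound by NF-Y nearby. MuvB sits in the DREAM repressor in resting cells and joins activators in dividing cells. RefSeq promoter windows of 300 bases (250 before and 50 after the transcription start, GRCm38.p6) were matched by symbol for 29 of the 34 genes and searched on both strands for TTTGAA or TTCGAA (the CHR letters, of which TTTGAA reads TTCAAA on the opposite strand) and for CCAAT, which reads ATTGG there. No window was matched for Kif20a, Tpx2, Ccna2, Aurkb and Incenp. Only the first listed window of a gene was used, so other start sites were not searched. For 19 of the 29, the bases after the start were found near the start of a GENCODE transcript. CHR letters stood in 23 of the 29 windows (79.3%), against 5254 of 27025 windows of all genes (19.4%). In S phase genes they stood in 6 of 31 windows (19.4%). Among the other lists described further on, they stood in 18 of 26 windows of other spindle and cytokinesis genes (69.2%). They stood in 14 of 29 windows of other kinetochore and checkpoint genes (48.3%) and 7 of 14 of condensin and cohesin genes. Shares were lower for transcription regulators (29.4%), APC/C genes (23.5%) and CDK inhibitors and G2 checkpoint genes (11.1%). CCAAT stood in 22 of 29 (75.9%, against 37.9% of all windows) and both elements in 20 of 29 (69.0%, against 7.70%). CCAAT also stood in 72.4% of windows of other kinetochore and checkpoint genes, 65.4% of other spindle and cytokinesis genes and 64.5% of S phase genes. Its share was 72.2% for CDK inhibitors and G2 checkpoint genes, 41.2% for transcription regulators and 35.3% for APC/C genes. For condensin and cohesin genes it stood in 7 of 14 windows. Both elements stood in 53.8% of windows of other spindle and cytokinesis genes and in at most 37.9% of any other list. The 4 most abundant transcripts per length with CHR letters in their windows, and Nuf2, chosen after its values were seen because it moved against most of the others, are printed below from 200 bases before to 20 bases after the start, 5′ to 3′ on the gene's strand. Capitals mark CHR and CCAAT letters in either orientation.
Ccnb2: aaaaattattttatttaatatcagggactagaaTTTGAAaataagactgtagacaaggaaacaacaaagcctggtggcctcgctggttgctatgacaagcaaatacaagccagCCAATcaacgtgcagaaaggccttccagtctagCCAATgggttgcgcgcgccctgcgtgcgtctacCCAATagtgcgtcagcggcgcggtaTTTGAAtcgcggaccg
Top2a: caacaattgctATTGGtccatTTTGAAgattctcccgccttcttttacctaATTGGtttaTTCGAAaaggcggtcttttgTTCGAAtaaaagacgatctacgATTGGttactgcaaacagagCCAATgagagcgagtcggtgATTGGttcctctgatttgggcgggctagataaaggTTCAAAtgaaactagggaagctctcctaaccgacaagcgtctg
Cdc20: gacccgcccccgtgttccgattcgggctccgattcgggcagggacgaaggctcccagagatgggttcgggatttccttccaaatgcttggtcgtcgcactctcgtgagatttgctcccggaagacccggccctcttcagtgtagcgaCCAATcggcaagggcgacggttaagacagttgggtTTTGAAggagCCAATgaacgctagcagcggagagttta
Ube2c: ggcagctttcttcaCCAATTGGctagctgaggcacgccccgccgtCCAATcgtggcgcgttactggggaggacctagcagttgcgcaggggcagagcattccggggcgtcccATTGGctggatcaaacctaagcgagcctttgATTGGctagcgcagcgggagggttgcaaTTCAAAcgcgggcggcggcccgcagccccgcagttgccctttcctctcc
Nuf2: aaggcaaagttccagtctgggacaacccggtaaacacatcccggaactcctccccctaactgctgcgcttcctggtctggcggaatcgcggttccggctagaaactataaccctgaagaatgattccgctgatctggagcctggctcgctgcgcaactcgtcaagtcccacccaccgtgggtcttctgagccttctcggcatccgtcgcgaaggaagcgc
These stretches lie at chr9:70421535-70421754 (minus strand) for Ccnb2, chr11:99024170-99024389 (minus strand) for Top2a, chr4:118437324-118437543 (minus strand) for Cdc20, chr2:164769729-164769948 (plus strand) for Ube2c and chr1:169531445-169531664 (minus strand) for Nuf2. The Top2a stretch held 4 CHR matches and 5 CCAAT matches, that of Ccnb2 held 2 and 3, that of Cdc20 held 1 and 2, that of Ube2c held 1 and 5, and that of Nuf2 held neither. In Ube2c, a CCAAT and an ATTGG overlap in a single run. Such matches are letters in a window, not measured binding. The 6 windows without CHR letters were those of Birc5, Ccnb1, Cenpe, Mad2l1, Nuf2 and Nusap1.

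Per exon length, the most abundant of the 34 over all libraries were the mitotic cyclin Ccnb2 (127 RPKM, that is CPM per kilobase of annotated exon), the topoisomerase Top2a (113 RPKM), the APC/C activator Cdc20 (90.4 RPKM), the cyclin Ccna2 (74.3 RPKM), the APC/C ubiquitin-conjugating enzyme Ube2c (64.7 RPKM) and the centromeric histone Cenpa (63.2 RPKM). The least abundant were the spindle pole protein Aspm (7.26 RPKM) and the kinetochore protein Cenpf (8.15 RPKM). This order depends on the length used. Summed exons exceed the longest transcript for Top2a (9013 against 5221 bases) and Anln (9063 against 4605), but not for Ccnb2 (1531 for both). Every gene had at least 858 counts in every library, and the 2 libraries of a group differed by at most 0.18 on the log2 scale for any of the 34. Cenpe lies at chr3:135212537-135273611, Cenpf at chr1:189640606-189688086, Cenpa at chr5:30666777-30674830 and Mad2l1 at chr6:66535390-66547220 (GRCm38, GENCODE vM21), all protein-coding and counted over exons.

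In control cells, IFN-gamma raised 19 and lowered 7 of the 34 mitosis genes at an adjusted p below 0.05 by edgeR's quasi-likelihood test, where 36.4% and 34.1% of all 13601 genes were called higher and lower. The median of the 34 changes was 0.21 on the log2 scale, against 0.01 for all genes. The largest rises were those of Cenpe, Top2a, Cenpf (0.60) and Prc1 (0.56), and the largest falls those of Mad2l1, Nuf2 and Cdk1. Cenpe, a kinetochore motor, went from 140 and 149 CPM in vehicle to 243 and 243 CPM with IFN-gamma, a rise of 0.75 ± 0.05 (log2 ± SE, 1.68-fold, adjusted p = 1.05e-10). Top2a, which untangles sister DNA, went from 919 and 909 to 1474 and 1491 CPM (0.70 ± 0.04, 1.62-fold, adjusted p = 9.73e-12). For both genes, both IFN-gamma libraries stood well above both vehicle libraries. The proliferation marker Mki67, a coat of mitotic chromosomes, rose from 400 and 403 to 545 and 554 CPM (0.45 ± 0.05, adjusted p = 7.87e-08). Plk1 rose from 122 and 121 to 145 and 143 CPM (0.24 ± 0.04, adjusted p = 0.000116).

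Mad2l1, which encodes the spindle checkpoint protein Mad2, moved the other way in control cells, from 189 and 171 to 107 and 105 CPM (-0.77 ± 0.05, edgeR adjusted p = 3.78e-10). Nuf2, a subunit of the kinetochore NDC80 complex, fell from 122 and 115 to 70.0 and 69.6 CPM (-0.76 ± 0.05, adjusted p = 2.59e-10). Its partner Ndc80 stood at 74.5 and 69.8 CPM in vehicle and 77.2 and 79.0 CPM with IFN-gamma (0.11, not called), so subunits of the same complex did not move together. Cdk1 fell from 317 and 314 to 221 and 220 CPM (-0.52 ± 0.04, adjusted p = 3.24e-09) and Ccnb1 from 204 and 205 to 171 and 161 CPM (-0.30 ± 0.04, adjusted p = 4.59e-06). The other B-type cyclin, Ccnb2, rose by 0.28. By role, all 5 spindle and kinesin genes rose (Nusap1 0.54, Aspm 0.50, Tpx2 0.42, Kif2c 0.29 and Kif11 0.18), as did 3 of 4 mitotic kinases. In the chromosomal passenger complex, which corrects wrong attachments, Aurkb (0.37) and Incenp (0.29) rose while Birc5, the gene of survivin (-0.49), and Cdca8, the gene of borealin (-0.13), fell. The IFN-gamma and vehicle libraries of control did not overlap for 32 of the 34 genes (94.1%), where the same held for 84.3% of all tested genes.

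**Figure D1:**
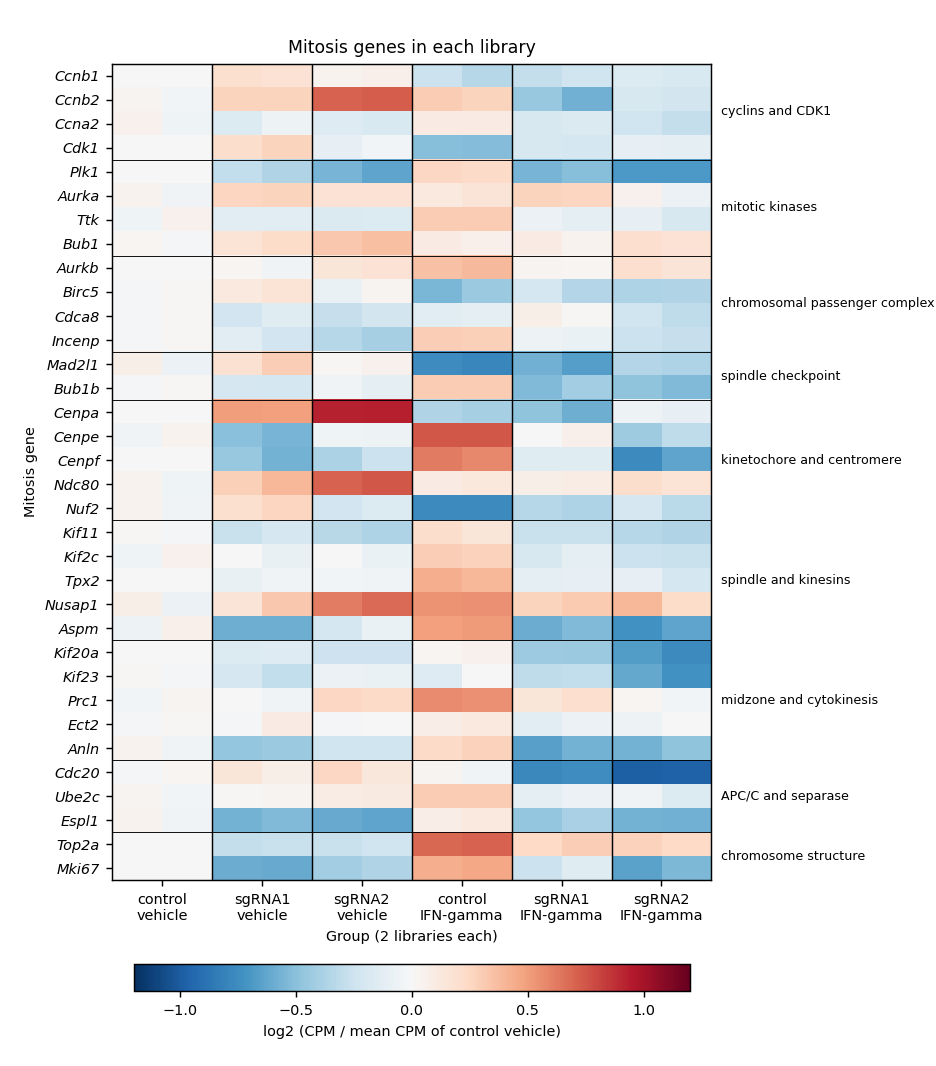
Level of each mitosis gene (rows, grouped by role) in each of the 12 libraries (columns, 2 per group), as log2 of CPM over the mean CPM of control vehicle. Control IFN-gamma libraries are mostly above control vehicle, except for genes such as Mad2l1, Nuf2, Cdk1 and Cenpa, while IFN-gamma libraries of both Cebpd sgRNA lines are mostly below it.

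In sgRNA1-labelled cells, IFN-gamma raised 7 and lowered 16 of the 34 genes, where 31.7% and 29.6% of all genes were called higher and lower (median -0.09 against 0.00 for all genes). This balance depended on the scaling of libraries: 5 rose and 21 fell with upper quartile scaling, and 15 rose and 10 fell when only library totals were used, a setting chosen after seeing the data that shifted the all-gene median by 0.15. The scaling factors of these 2 libraries, 1.08 and 1.09, were the highest of the 12. Of all genes called, 42.7% were higher with upper quartile scaling and 65.2% with library totals only. With the main scaling (TMM) 51.7% were. Against the median of all genes, the median of the 34 was -0.09 under each of these settings. A change of scaling shifts all genes of a comparison nearly alike, so this value could hardly change and is no check of the counts. Cenpa fell from 470 and 466 to 237 and 220 CPM (-1.04 ± 0.04, edgeR adjusted p = 6.48e-13). Cdc20 fell from 211 and 200 to 112 and 114 CPM (-0.87 ± 0.05, adjusted p = 3.84e-11), whereas in control cells it stood at 188 and 193 CPM in vehicle and 194 and 185 CPM with IFN-gamma. The falls of Cenpa and Cdc20 exceeded the shift between scalings. Ccnb2, a gene that rose in control cells, fell here by 0.78 on the log2 scale. Cenpe rose from 102 and 98.6 to 146 and 151 CPM (0.56 ± 0.05, adjusted p = 1.71e-08) and Top2a from 748 and 760 to 1079 and 1120 CPM (0.54 ± 0.04, adjusted p = 6.94e-10). Mki67 also rose, by 0.39 ± 0.05 (adjusted p = 9.35e-07), while Cdk1 (-0.44 ± 0.04, adjusted p = 4.90e-08) and Ccnb1 (-0.44 ± 0.04, adjusted p = 4.97e-08) fell as they did in control.

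In sgRNA2-labelled cells, IFN-gamma raised only Top2a and lowered 22 of the 34 genes, where 30.5% and 29.2% of all genes were called higher and lower (median -0.21 against -0.02 for all genes). With upper quartile scaling the all-gene median shifted by -0.12 and the counts were 1 higher and 30 lower, and library totals only gave 2 and 20. The count of rises was also 2 when any of 4 single libraries was left out (replicate 1 or 2 of sgRNA1 vehicle, replicate 1 of sgRNA2 vehicle, replicate 1 of sgRNA2 IFN-gamma). Of all genes called, 38.1% were higher with upper quartile scaling and 58.3% with library totals only, against 51.1% with the main scaling. Cdc20 fell from 226 and 209 to 96.9 and 97.0 CPM, to 0.446 of the vehicle level (-1.17 ± 0.05, edgeR adjusted p = 7.87e-13). Cenpa fell from 629 and 630 to 317 and 309 CPM (-1.01 ± 0.04, adjusted p = 8.47e-13). Both genes had their IFN-gamma libraries far below their vehicle libraries. Top2a rose from 759 and 775 to 1104 and 1075 CPM (0.51 ± 0.04, adjusted p = 2.22e-09). Mki67 fell, from 301 and 313 to 257 and 276 CPM (-0.20 ± 0.05, adjusted p = 0.00123). Cdk1, at 294 and 309 CPM in vehicle and 294 and 291 CPM with IFN-gamma, did not pass the test (-0.04 ± 0.04, adjusted p = 0.399), nor did Plk1 (-0.09 ± 0.05, adjusted p = 0.112). By role, 4 of 5 midzone and cytokinesis genes fell: the central spindle motors Kif20a (-0.47) and Kif23 (-0.60), the microtubule bundler Prc1 (-0.25) and the ring scaffold Anln (-0.29).

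The IFN-gamma responses of the 3 lines came from separate libraries. Of the 19 genes that rose in control, 13 (68.4% of 19, and 59.1% of the 22 that fell in sgRNA2-labelled cells) fell in sgRNA2-labelled cells, and 5 (26.3%, and 31.2% of 16) fell in sgRNA1-labelled cells. The 5 were Ccnb2, Plk1, the checkpoint gene Bub1b, Anln and Ube2c (-0.11, but 0.040 with library totals only and 0.024 with the length offset described further on). A set of 12 genes fell in both lines with a Cebpd sgRNA (75.0% of 16 and 54.5% of 22), among them Cdc20, Cenpa, Ccnb2 and Kif20a. Cenpe, Cenpf, Prc1 and Mki67 rose in control and in sgRNA1-labelled cells and fell in sgRNA2-labelled cells, although with the length offset the sgRNA1 values of Cenpf and Prc1 were -0.054 and -0.014. Top2a rose in all 3 lines. The 4 genes Ccnb1, Birc5, Mad2l1 and Cenpa fell in all 3. Of all genes, 36.4% rose and 34.1% fell in control. In sgRNA1-labelled cells 31.7% rose and 29.6% fell, and in sgRNA2-labelled cells 30.5% and 29.2%. Overlaps between lines were not counted over all genes, so whether they are particular to mitosis genes was not tested.

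**Figure D2:**
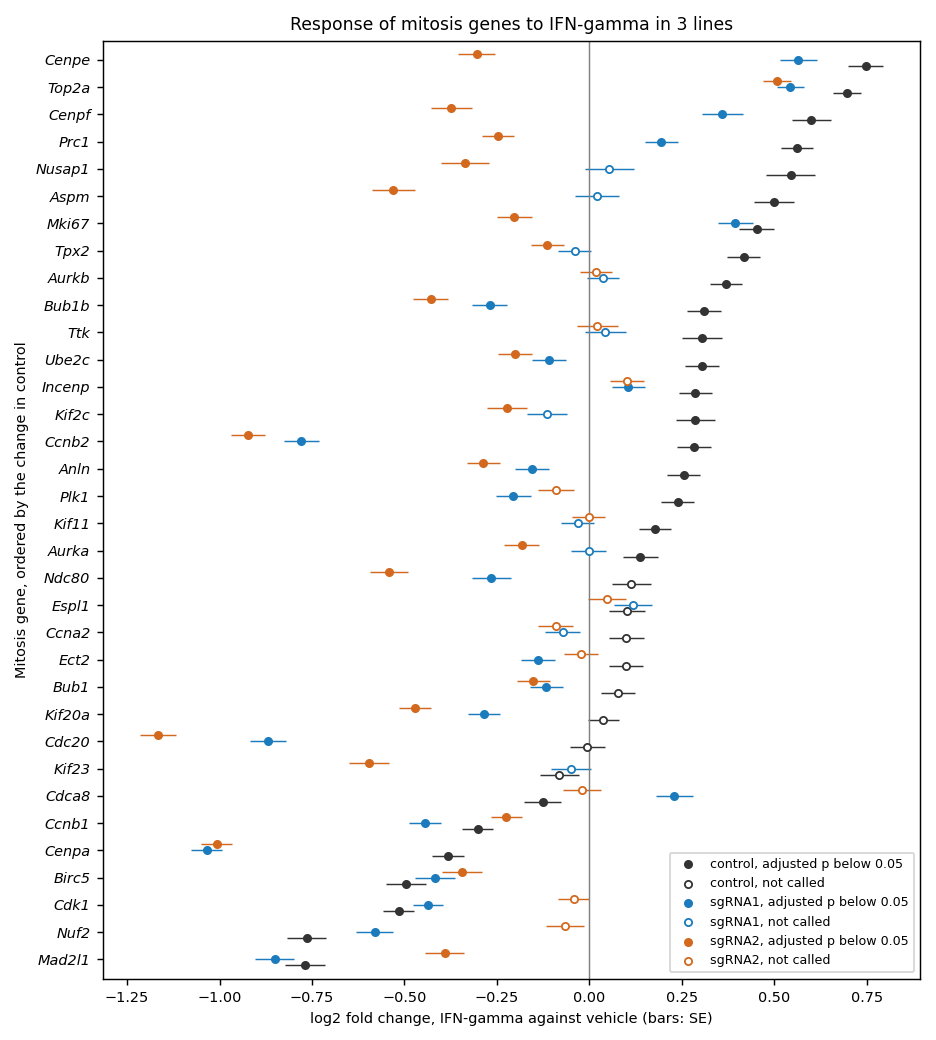
IFN-gamma response of each mitosis gene (rows, ordered by the response in control) as log2 fold change against vehicle in the same line, with SE bars; filled points passed an adjusted p below 0.05. Control points run from -0.77 (Mad2l1) to 0.75 (Cenpe), and points of both Cebpd sgRNA lines lie to the left of control for most genes.

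The difference between responses was tested directly, as the log2 response in an sgRNA line minus that in control. In sgRNA1-labelled cells it was below 0 past the test for 24 genes and above 0 for 2 (28.2% and 26.9% of all genes), with a median of -0.24 against -0.03 for all genes. For sgRNA2-labelled cells it was below 0 for 26 and above 0 for 3 (34.7% and 30.4% of all genes), with a median of -0.43 against -0.08. The same control libraries enter both comparisons. With library totals only, which shifted the all-gene median by 0.19 and 0.11, the counts were 13 below and 6 above for sgRNA1 and 20 below and 6 above for sgRNA2. The count above 0 was 1 for sgRNA1 without replicate 1 of control vehicle, of sgRNA1 vehicle, of control IFN-gamma or of sgRNA1 IFN-gamma, or without replicate 2 of either of the last pair, and 5 for sgRNA2 without replicate 2 of sgRNA2 vehicle. Of all genes called, 64.9% and 53.1% were above 0 with library totals only, against 48.8% and 46.7% with the main scaling. Against the median of all genes the median of the 34 was -0.21 and -0.35 with both scalings, values that a change of scaling can hardly move. Ccnb2 had the most negative difference in each, -1.06 ± 0.07 (edgeR adjusted p = 3.97e-10) for sgRNA1 and -1.21 ± 0.07 (adjusted p = 1.70e-11) for sgRNA2. It rose from 180 and 172 to 218 and 212 CPM in control but fell from 213 and 212 to 129 and 119 CPM in sgRNA1-labelled cells, and from 288 and 291 to 154 and 151 CPM in sgRNA2-labelled cells. Cdc20 followed, at -0.86 ± 0.07 (adjusted p = 7.43e-09) and -1.16 ± 0.07 (adjusted p = 5.41e-11). Plk1 differed by -0.44 ± 0.07 (adjusted p = 1.42e-05) and -0.33 ± 0.07 (adjusted p = 0.000246).

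A few genes went against this direction. For Nuf2 the difference was 0.18 ± 0.07 in sgRNA1-labelled cells (edgeR adjusted p = 0.0395) and 0.70 ± 0.07 in sgRNA2-labelled cells (adjusted p = 1.30e-07), since it fell by 0.76 in control and stood at 101 and 106 CPM in vehicle and 103 and 95.0 CPM with IFN-gamma in sgRNA2-labelled cells. Cdk1 had a difference of 0.47 ± 0.06 in sgRNA2-labelled cells (adjusted p = 1.33e-06) and 0.08 ± 0.06 in sgRNA1-labelled cells (adjusted p = 0.274). Cdca8 had 0.36 ± 0.07 in sgRNA1-labelled cells (adjusted p = 0.000296), and Mad2l1 had 0.38 in sgRNA2-labelled cells. The 6 genes without CHR letters included 2 of these 4. Of the 23 genes with CHR letters, 17 had a difference below 0 with sgRNA1 and 19 with sgRNA2, and 1 and 1 above 0. Of the 6 without, 2 and 2 were below 0 and 1 and 2 above. Of all genes, 28.2% were below 0 and 26.9% above with sgRNA1, and 34.7% and 30.4% with sgRNA2. All genes were not split by CHR letters. These counts describe the windows and were not tested.

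A contrast between both sgRNA responses was added after the data had been seen. It was below 0 (lower response with sgRNA2) for 12 genes and above 0 for 4, where 21.9% and 20.9% of all genes were called. As shares of the 34 these were 35.3% and 11.8%, with a median of -0.08 against -0.04 for all genes. Cenpe differed by -0.87 ± 0.07 (edgeR adjusted p = 3.09e-08), Cenpf by -0.73 ± 0.08 (adjusted p = 8.09e-07) and Mki67 by -0.60 ± 0.07 (adjusted p = 1.45e-06). Nuf2 (0.51 ± 0.07, adjusted p = 1.63e-05), Mad2l1 (0.46 ± 0.07, adjusted p = 7.93e-05), Cdk1 (0.39 ± 0.06, adjusted p = 3.34e-05) and Ccnb1 (0.22 ± 0.06, adjusted p = 0.00653) were the 4 above 0. Top2a, at -0.04 ± 0.05 (adjusted p = 0.622), did not pass.

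In vehicle, each sgRNA line differed from control in both directions. With sgRNA1, 11 genes were higher and 14 lower (25.6% and 26.9% of all genes, median -0.05 against 0.03). With sgRNA2, 9 were higher and 14 lower (38.3% and 35% of all genes, median -0.06 against 0.06). As shares of the 34, these counts were 32.4% higher and 41.2% lower with sgRNA1, and 26.5% higher and 41.2% lower with sgRNA2. With upper quartile scaling the all-gene median shifted by 0.10 and 0.17 in these comparisons, and the counts became 14 higher and 10 lower for sgRNA1 and 18 higher and 7 lower for sgRNA2. All genes moved the same way: 62.8% and 62.5% of those called were higher with this scaling, against 48.8% and 52.3% with the main scaling. The controls are shared by both comparisons. Cenpa stood at 331 and 330 CPM in control, 470 and 466 CPM with sgRNA1 (0.50 ± 0.04, edgeR adjusted p = 2.91e-08) and 629 and 630 CPM with sgRNA2 (0.93 ± 0.04, 1.90-fold, adjusted p = 1.15e-12). Ndc80 stood at 74.5 and 69.8 CPM in control, 88.2 and 95.3 with sgRNA1 (0.35 ± 0.05, adjusted p = 2.53e-05) and 118 and 121 with sgRNA2 (0.73 ± 0.05, adjusted p = 4.59e-10). For both genes the 3 lines held separate ranges in vehicle, control lowest and sgRNA2 highest. Some cell type markers stood in the same order in these libraries: Csf1r, a macrophage marker, at 0.775 and 0.734 CPM in control, 3.72 and 1.99 CPM in sgRNA1-labelled cells and 7.52 and 9.02 CPM in sgRNA2-labelled cells, and Pdgfra, a fibroblast marker, at 15.1 and 13.8, 19.4 and 17.6, and 28.4 and 28.0 CPM. The leukocyte marker Ptprc stayed at or below 0.567 CPM and Itgam at or below 0.156 CPM in vehicle. Epcam stood at 272 and 270 CPM in control, 276 and 273 CPM in sgRNA1-labelled cells and 440 and 425 CPM in sgRNA2-labelled cells. Krt19 stood at 97.6 and 96.9, 117 and 104, and 269 and 269 CPM. Krt18 was also higher in sgRNA2 vehicle than in control (1111 and 1106 against 992 and 1001 CPM). Krt8 was lower there (871 and 825 against 1113 and 1132 CPM), as was Krt7 (959 and 946 against 1086 and 1117 CPM). Cdh1 was lower as well (289 and 285 against 335 and 328 CPM). The summed level of these epithelial markers was 3939 and 3855 CPM in sgRNA2 vehicle and 3896 and 3945 CPM in control vehicle. The part of these markers in the vehicle differences was not tested.

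Separase, the protease that opens sister chromatids (Espl1), was lower with sgRNA2, at 64.9 and 63.8 CPM against 102 and 96.3 CPM in control (-0.62 ± 0.05, edgeR adjusted p = 2.89e-09), and stood at 66.9 and 68.6 CPM with sgRNA1 (-0.55). Plk1 was lower with both, by -0.33 ± 0.05 (adjusted p = 1.11e-05) and -0.60 ± 0.05 (adjusted p = 1.99e-09). Mki67 was lower by -0.60 ± 0.05 with sgRNA1 (266 and 264 CPM, adjusted p = 1.17e-08) and by -0.39 ± 0.05 with sgRNA2 (adjusted p = 6.87e-07). Aspm stood at 91.5 and 99.5 CPM in control and 63.6 and 63.7 CPM with sgRNA1 (-0.59 ± 0.06, adjusted p = 1.82e-07). Top2a was lower by -0.28 ± 0.04 (adjusted p = 7.13e-06) and -0.25 ± 0.04 (adjusted p = 8.52e-06). Cdk1 was higher with sgRNA1 (0.24 ± 0.04, adjusted p = 0.000111) and not called with sgRNA2 (-0.07 ± 0.04, adjusted p = 0.165; 0.10 with upper quartile scaling).

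Genes lower in vehicle tended to have longer annotated exons. Across the 34 genes, the Spearman correlation of the vehicle difference with annotated exon length was -0.51 for sgRNA1 and -0.40 for sgRNA2. Across all 13530 tested genes with an annotated length it was -0.37 and -0.19. These are descriptions across genes measured in the same libraries, and both comparisons use the same controls. When the length trend of each library was used as an offset, a setting chosen after seeing the data, 9 were higher and 15 lower with sgRNA1, and 7 and 12 with sgRNA2. Ccnb2, 0.27 in the vehicle comparison of sgRNA1, came to -0.0039 under that setting, and the higher Cdc20 level with sgRNA2 (0.19) to -0.06. With IFN-gamma present, the length correlation of the difference from control was -0.14 for sgRNA1 and -0.24 for sgRNA2 across the 34. Across all genes it was -0.16 and -0.32. For the response to IFN-gamma in control, sgRNA1-labelled and sgRNA2-labelled cells it was 0.21, 0.41 and 0.03 across the 34. Across all genes it was 0.17, 0.33 and 0.19. With the offset, the median of the 34 against control in IFN-gamma was -0.38 with sgRNA1 and -0.41 with sgRNA2 (-0.39 and -0.47 without).

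**Figure D3:**
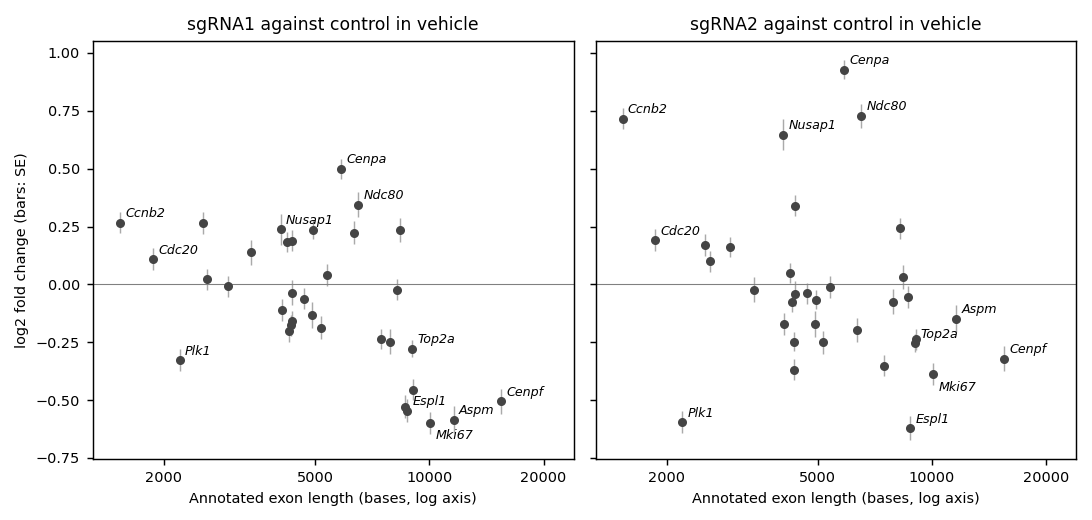
Vehicle log2 fold change of each mitosis gene against control (y axis, SE bars) by annotated exon length in bases (x axis, log scale), for sgRNA1 (left) and sgRNA2 (right). Long genes such as Mki67, Aspm and Cenpf lie below 0 in both panels, but so does the short gene Plk1 (2199 bases). Cenpa (5860 bases), Ndc80 (6493 bases) and the short gene Ccnb2 (1531 bases) lie above 0.

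With IFN-gamma present, most mitosis genes were lower than control in both lines. With sgRNA1, 25 genes were lower and 6 higher (33.3% and 31.6% of all genes, median -0.39 against 0.00). With sgRNA2, 26 were lower and 7 higher (31.6% and 30.2% of all genes, median -0.47 against 0.03). Library totals only, which shifted the all-gene median by 0.17, gave 21 lower and 9 higher with sgRNA1, and upper quartile scaling, which shifted the all-gene median by 0.11 in the sgRNA2 comparison, gave 21 lower and 8 higher with sgRNA2. Without replicate 1 of sgRNA1 IFN-gamma, 2 genes were higher with sgRNA1. Of all genes called, 63.3% were higher with library totals only for sgRNA1 and 58.2% with upper quartile scaling for sgRNA2. With the main scaling 48.7% and 48.9% were. Groups did not overlap for 32 of 34 genes with sgRNA1 (82.3% of all tested genes did not) and for 34 of 34 with sgRNA2 (80% of all tested genes). All 5 spindle and kinesin genes, all 5 midzone and cytokinesis genes and all 3 APC/C and separase genes were lower with each sgRNA.

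Cenpf had the largest difference with sgRNA2, at 80.2 and 87.7 CPM against 210 and 203 CPM in control (-1.30 ± 0.05, to 0.407 of control, edgeR adjusted p = 2.24e-12). With sgRNA1 it stood at 123 and 123 CPM. Aspm stood at 134 and 136 CPM in control, 63.0 and 66.2 CPM with sgRNA1 (-1.06 ± 0.06, adjusted p = 1.70e-11) and 57.7 and 61.4 CPM with sgRNA2 (-1.18 ± 0.06, adjusted p = 9.94e-12). Aspm thus lay at 0.479 and 0.442 of the control level, with no overlap between the lines' libraries and control. Anln, an actin-binding scaffold of the contractile ring, stood at 736 and 759 CPM in control and 398 and 424 CPM with sgRNA1 (-0.86 ± 0.05, adjusted p = 1.58e-11). Mki67 was lower by -0.66 ± 0.05 (adjusted p = 8.47e-10) and -1.04 ± 0.05 (adjusted p = 5.04e-12). Plk1 was lower by -0.77 ± 0.05 (adjusted p = 7.91e-11) and -0.92 ± 0.05 (adjusted p = 1.48e-11). Top2a, despite its rise within each line, was lower by -0.43 ± 0.04 (adjusted p = 1.22e-08) and -0.44 ± 0.04 (adjusted p = 1.03e-08).

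The genes higher than control with IFN-gamma included those that fell most in control. The same control IFN-gamma libraries enter both comparisons, so part of this relation is built in. Nuf2 stood at 93.3 and 91.7 CPM with sgRNA1 (0.41 ± 0.05, edgeR adjusted p = 2.06e-06) and at 103 and 95.0 CPM with sgRNA2 (0.50 ± 0.05, adjusted p = 1.51e-07), against 70.0 and 69.6 CPM in control. Cdk1 was higher by 0.32 ± 0.04 (adjusted p = 2.96e-06) and 0.41 ± 0.04 (adjusted p = 1.33e-07). Mad2l1 stood at 141 and 140 CPM with sgRNA2 against 107 and 105 CPM in control (0.41 ± 0.05, adjusted p = 2.93e-06). Ccnb1 was not called with sgRNA1 (0.04 ± 0.04, adjusted p = 0.423) and was slightly higher with sgRNA2 (0.13 ± 0.04, adjusted p = 0.0161).

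**Figure D4:**
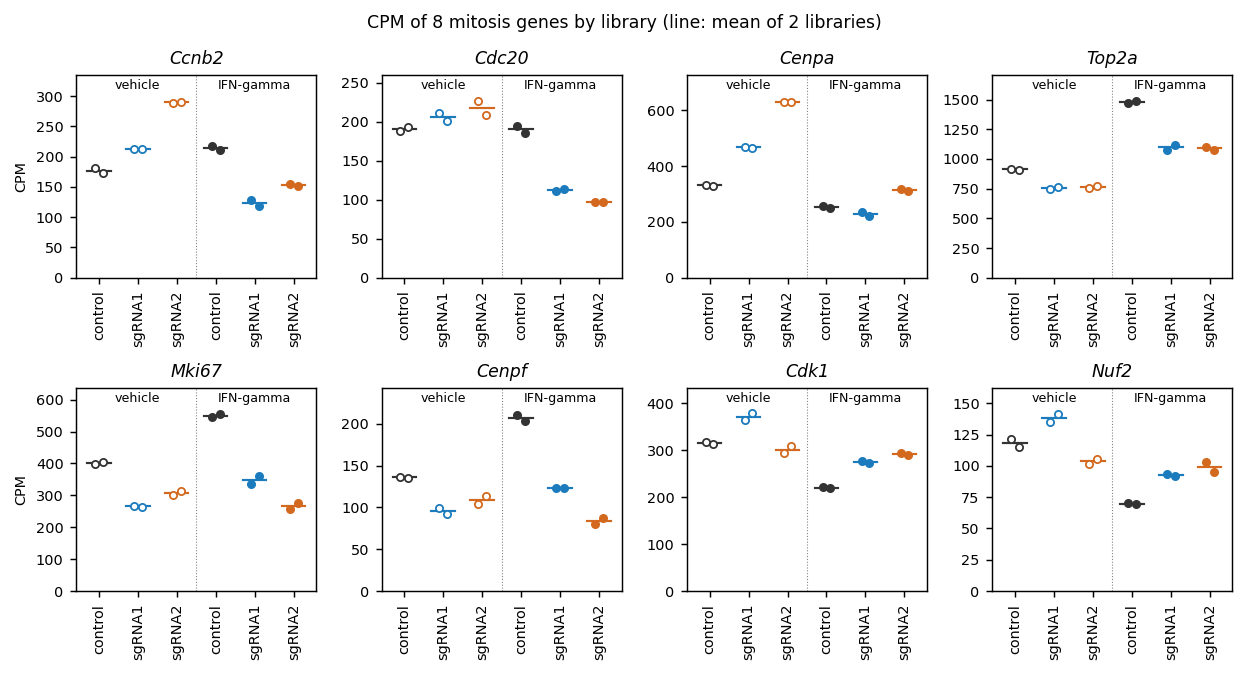
CPM of 8 mitosis genes in each library (points; y axes start at 0; open, vehicle; filled, IFN-gamma; lines, mean of 2 libraries). Ccnb2 and Cdc20 are lowest in IFN-gamma libraries of the Cebpd sgRNA lines, Cenpa is highest in sgRNA2 vehicle (629 and 630 CPM), and Nuf2 and Cdk1 are lowest in control with IFN-gamma.

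The sgRNA lines also differed from each other, but the 34 genes were called about as often as all genes. In vehicle 12 of the 34 and 5125 of all 13601 genes were not called, and with IFN-gamma 17 and 7083. Of the 34, 41.2% were higher and 23.5% lower with sgRNA2 in vehicle (median 0.02 against 0.05 for all genes). With IFN-gamma 14.7% were higher and 35.3% lower (median -0.07 against -0.0005). In vehicle, 14 genes were higher and 8 lower with sgRNA2 than with sgRNA1 (33.2% and 29.1% of all genes, 16 and 5 with upper quartile scaling, and 9 higher without replicate 2 of sgRNA2 vehicle), led by Cenpe (139 and 140 against 102 and 98.6 CPM, 0.47 ± 0.05, edgeR adjusted p = 2.10e-07) and Ccnb2 (0.45 ± 0.05, adjusted p = 1.20e-07). Nuf2 (-0.42 ± 0.05, adjusted p = 1.07e-06) and Cdk1 (-0.30 ± 0.04, adjusted p = 5.24e-06) were lower. With IFN-gamma, 5 were higher and 12 lower (23.4% and 24.5% of all genes); upper quartile scaling gave 10 and 11, and library totals only, which shifted the all-gene median by -0.10, gave 3 and 22, and without replicate 1 of sgRNA2 IFN-gamma 3 were higher. Cenpa was higher with sgRNA2 (0.46 ± 0.04, adjusted p = 1.58e-07), and Cenpf (-0.55 ± 0.05, adjusted p = 2.85e-07) and Cenpe (-0.40 ± 0.05, adjusted p = 3.14e-06) were lower. Cenpe thus stood higher with sgRNA2 in vehicle and lower with sgRNA2 in IFN-gamma. Of all genes called in IFN-gamma, 54.8% were higher with upper quartile scaling and 33% with library totals only. With the main scaling 48.8% were. Of those called in vehicle, 59.1% were higher with upper quartile scaling, against 53.3% with the main scaling.

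Genes of neighbouring steps were read from lists chosen by function, with earlier results of these data known. Of all genes, IFN-gamma raised 36.4% and lowered 34.1% in control and 31.7% and 29.6% in sgRNA1-labelled cells. In sgRNA2-labelled cells it raised 30.5% and lowered 29.2%. Against control in IFN-gamma, 31.6% of all genes were higher and 33.3% lower with sgRNA1, and 30.2% and 31.6% with sgRNA2. Other scalings moved the all-gene calls too. With library totals only, 65.2% of all genes called for IFN-gamma in sgRNA1-labelled cells were higher, against 51.7% with the main scaling. In sgRNA2-labelled cells upper quartile scaling gave 38.1%, against 51.1%. Among 30 other spindle and cytokinesis genes, IFN-gamma raised 16 and lowered 7 in control, raised 8 and lowered 16 in sgRNA1-labelled cells (10 and 11 with library totals only), and raised 7 and lowered 19 in sgRNA2-labelled cells. The microtubule regulator Psrc1 rose from 5.42 and 4.67 to 15.2 and 17.2 CPM in control and fell from 6.44 and 7.85 to 2.30 and 3.28 CPM in sgRNA1-labelled cells, and from 20.8 and 14.9 to 6.12 and 6.67 CPM in sgRNA2-labelled cells. In the IFN-gamma libraries 21 of these 30 were lower and 2 higher than control with sgRNA1 (17 and 5 with library totals only), and 22 were lower and 3 higher with sgRNA2. Among 34 other kinetochore and checkpoint genes, IFN-gamma raised 4 and lowered 17 in control, raised 8 and lowered 16 in sgRNA1-labelled cells (16 and 10 with library totals only), and raised 14 and lowered 8 in sgRNA2-labelled cells (11 and 10 with upper quartile scaling). The shugoshin gene Sgo2a rose by 0.90 in control, whereas the centromere genes Cenpw and Cenpi fell by 0.92 and 0.89. In sgRNA1-labelled cells Sgo2a rose by 0.37 and Cenpw and Cenpi fell by 0.84 and 0.64, and in sgRNA2-labelled cells none of the 3 passed the test (0.11, -0.18 and 0.08). Against control in IFN-gamma, 17 of these 34 were higher and 5 lower with sgRNA1, and 18 higher and 8 lower with sgRNA2. Of 18 APC/C genes and regulators, IFN-gamma lowered 10 and raised 3 in control, lowered 9 and raised 2 in sgRNA1-labelled cells (5 and 3 with library totals only), and lowered 7 and raised 2 in sgRNA2-labelled cells (10 and 1 with upper quartile scaling, 6 and 5 with library totals only). Pttg1, the gene of securin, rose by 0.64 in control and fell by 0.72 and 1.02 in sgRNA1-labelled and sgRNA2-labelled cells. Of 17 condensin and cohesin genes, 12 rose and 4 fell with IFN-gamma in control, 7 rose and 5 fell in sgRNA1-labelled cells (11 and 2 with library totals only), and 8 rose and 6 fell in sgRNA2-labelled cells (6 and 8 with upper quartile scaling). In the IFN-gamma libraries 14 were lower and 3 higher than control with sgRNA1, and 14 lower and 1 higher with sgRNA2 (12 and 3 with upper quartile scaling).

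Genes of S phase were counted in the same way. IFN-gamma raised 12.5% and lowered 70% of them in control, and 77.5% and 5% with sgRNA2. With sgRNA1 it raised 32.5%, close to the 31.7% of all genes, and lowered 47.5%. Of all genes, the response minus that of control was above 0 for 26.9% with sgRNA1 and 30.4% with sgRNA2. It was below 0 for 28.2% and 34.7%. In vehicle 25.6% of all genes were higher and 26.9% lower than control with sgRNA1, and 38.3% and 35% with sgRNA2. Of 40 genes of DNA replication and S phase, IFN-gamma lowered 28 and raised 5 in control (median -0.52), lowered 19 and raised 13 with sgRNA1 (median -0.08; 22 and 9 with upper quartile scaling, 15 and 15 with library totals only), and lowered 2 and raised 31 with sgRNA2 (median 0.51; 6 and 29 with upper quartile scaling). The S phase cyclins led the fall in control: Ccne2 went from 75.2 and 70.9 to 7.88 and 5.86 CPM (-3.40) and Ccne1 from 19.3 and 17.3 to 4.26 and 4.88 CPM (-2.00). In sgRNA1-labelled cells Ccne2 fell from 84.6 and 89.9 to 51.5 and 49.9 CPM (-0.78) and Ccne1 went from 21.1 and 21.8 to 26.5 and 25.2 CPM (0.27, edgeR adjusted p = 0.0405). In sgRNA2-labelled cells Ccne2 stood at 24.6 and 24.9 CPM in vehicle and 25.9 and 23.9 CPM with IFN-gamma (adjusted p = 0.961), and Ccne1 rose from 4.93 and 5.96 to 13.7 and 15.8 CPM (1.45). The response minus that of control was above 0 for 27 of the 40 with sgRNA1 and for 36 with sgRNA2, and below 0 for 6 and 1, against 2 and 3 above and 24 and 26 below among the mitosis genes. In vehicle, 33 of the 40 were lower and 4 higher than control with sgRNA2, and 20 were lower and 11 higher with sgRNA1 (17 and 15 with upper quartile scaling).

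**Figure D5:**
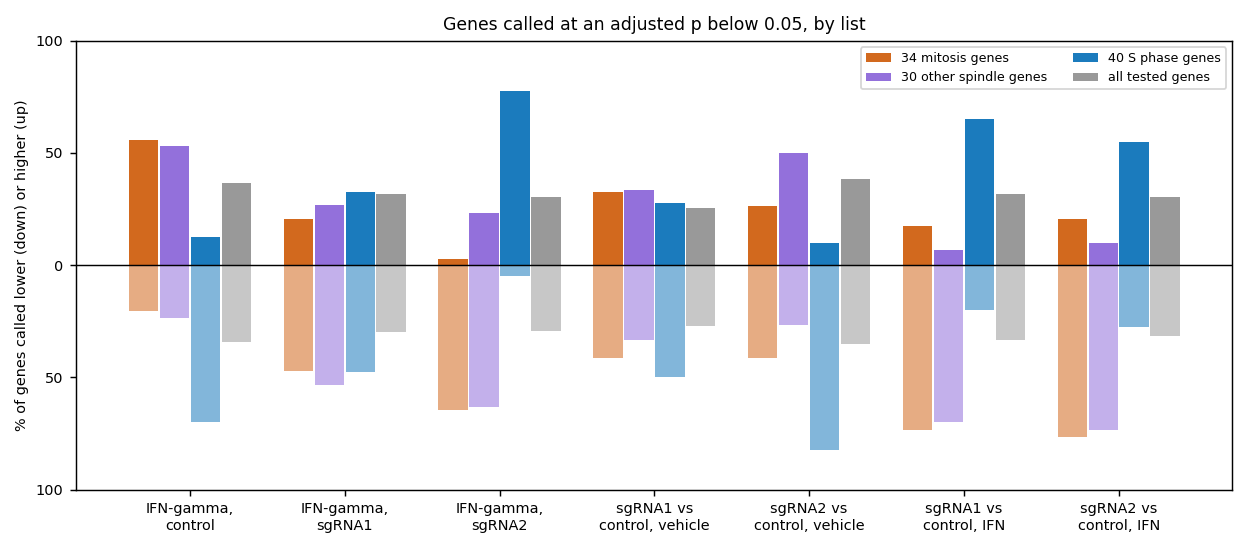
Share of genes (y axis, %) called higher (bars up) or lower (bars down) at an adjusted p below 0.05 in 7 comparisons (x axis), for the 34 mitosis genes, 30 other spindle genes, 40 S phase genes and all 13601 tested genes. For IFN-gamma in control the mitosis and other spindle genes are mostly called higher and the S phase genes lower, and for the sgRNA lines against control in IFN-gamma the mitosis and other spindle genes are mostly called lower and the S phase genes higher.

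Regulators of mitotic transcription and the G2 checkpoint varied between lines. Of 21 tested regulators, 11 fell and 6 rose with IFN-gamma in control (52.4% and 28.6%, where 34.1% and 36.4% of all genes were called lower and higher), led by the retinoblastoma gene Rb1 (1.31) and its relative Rbl2 (1.02) upward and the E2F partner Tfdp1 (-1.20) downward. In sgRNA1-labelled cells 7 fell and 6 rose (33.3% and 28.6%, against 29.6% and 31.7% of all genes; 9 and 5 with upper quartile scaling, 3 and 10 with library totals only). In sgRNA2-labelled cells 6 fell and 12 rose (28.6% and 57.1%, against 29.2% and 30.5% of all genes). Mybl2, the gene of B-MYB, fell by 0.51 in control and rose by 0.40 in sgRNA1-labelled and 1.05 in sgRNA2-labelled cells. Rb1 rose in both sgRNA lines as well (1.05 and 0.66). Rbl2 had a response difference of -1.10 with sgRNA1 and -1.40 with sgRNA2. Of 19 tested CDK inhibitors and G2 checkpoint genes, 11 rose and 6 fell in control (57.9% and 31.6%, against 36.4% and 34.1% of all genes), 6 rose and 4 fell in sgRNA1-labelled cells (3 and 7 with upper quartile scaling, 12 and 4 with library totals only), and 4 rose and 11 fell in sgRNA2-labelled cells. Gadd45a, a stress-induced gene of the G2 checkpoint, rose from 10.7 and 12.2 to 80.9 and 72.4 CPM in control and from 20.3 and 25.2 to 42.5 and 42.2 CPM in sgRNA1-labelled cells. In sgRNA2-labelled cells it fell from 124 and 125 to 67.4 and 67.3 CPM. In vehicle it was higher with sgRNA2 than with control by 3.44 on the log2 scale, in the same libraries in which Cenpa, Ndc80 and Ccnb2 were highest. Gadd45a had the largest rise of these 19 genes in control, and Sfn the largest fall. Sfn went from 76.2 and 77.2 to 24.9 and 26.3 CPM in control (-1.58). It went from 79.0 and 79.8 to 77.8 and 72.9 CPM in sgRNA1-labelled cells, and from 59.6 and 57.8 to 47.5 and 47.0 CPM in sgRNA2-labelled cells.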

How the data were processed

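RNA from 12 cultured 4T1 libraries was sequenced after preparation with a TruSeq RNA kit from 1 ug of total RNA, per the labels' protocols; this kit does not mark strand, so reads from a gene and from an overlapping antisense gene are not separated. The authors deposited a table of raw counts per gene, and STAR 2.4.0, HTSeq, DESeq2 1.10 and build mm10 are named in the submitters' processing notes. Counts were used as deposited in edgeR 4.0.16 (R 4.3.3): genes were filtered by a minimum count of 10 and total of 15 (13601 of 16283 kept, 99.965% of counts), scaled by TMM, fitted with 1 mean per group over all 6 groups (6 residual degrees of freedom, common biological variation 4.67%), tested by quasi-likelihood and adjusted by Benjamini-Hochberg over all 13601 genes, with calls at an adjusted p below 0.05. CPM use TMM-scaled totals and RPKM the summed exon length in GENCODE vM21 (99.3% of symbols matched). Totals of 16912710 to 24784371 counts per library and 2 libraries per group set the precision. Replicate numbers did not pair the libraries (correlations of deviations -0.0788 to 0.0642 over 15 pairs of groups). Libraries of a group differed by more than counting noise (chi-square per degree of freedom 2.71 to 6.95). Settings tried were RLE and upper quartile scaling, library totals only, no filter, DESeq2 1.42.0, a replicate block, an exon length offset (loess span 0.5) and leaving out each library. Scripts were tested on simulated data. Members and lists were chosen with earlier results of these data known; per comparison, the 2 members with the largest called rise and the 2 with the largest fall, with Ccnb1, Cdk1, Plk1, Top2a and Mki67, are given with full statistics, and other members with log2 values.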

Additional observations from a re-analysis of the deposited data

Results flagged for a closer look

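The IFN-gamma response of the sgRNA1-labelled line differed from that of control, by the interaction test in edgeR (adjusted p below 0.05), for 2 mitosis genes upward and 24 downward (26.9% and 28.2% of all genes). With sgRNA2 it differed for 3 upward and 26 downward (30.4% and 34.7% of all genes). Between both sgRNA lines, a contrast added after the data were seen, it differed for 4 upward and 12 downward (20.9% and 21.9% of all genes). For sgRNA1 minus control, Cdca8 differed by 0.36, Nuf2 by 0.18, Ccnb2 by -1.06, Cdc20 by -0.86, Plk1 by -0.44 and Top2a by -0.15 on the log2 scale, the last being 0.034 with library totals only. For sgRNA2 minus control, Nuf2 differed by 0.70, Cdk1 by 0.47, Ccnb2 by -1.21, Cdc20 by -1.16, Plk1 by -0.33, Top2a by -0.19 and Mki67 by -0.66. For sgRNA2 minus sgRNA1, Nuf2 differed by 0.51, Mad2l1 by 0.46, Cenpe by -0.87, Cenpf by -0.73, Ccnb1 by 0.22, Cdk1 by 0.39 and Mki67 by -0.60. The comparisons with control share the control libraries. With 2 libraries in a group, single libraries could not be screened for outlying values.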

How the results depend on the processing

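Values below are counts of the 34 mitosis genes called, or log2 values that changed sign, and the cause was not tested. Calls of all genes moved with the scaling too, by the shares given in the results. With library totals only, chosen after seeing the data, IFN-gamma in sgRNA1-labelled cells gave 15 higher and 10 lower, with Aurka at 0.15, Bub1 0.032, Kif11 0.12, Tpx2 0.11, Ect2 0.0094 and Ube2c 0.040. In the same setting IFN-gamma in sgRNA2-labelled cells gave 2 higher. Against control in IFN-gamma with sgRNA1, Bub1 came to 0.17, Cenpa to 0.022 and Ndc80 to 0.14. The response of sgRNA1 minus control gave 6 higher and 13 lower, with Ccna2 at 0.016, Incenp 0.0066, Cenpe 0.00624 and Top2a 0.034, and that of sgRNA2 minus control gave 6 higher. Between sgRNAs in IFN-gamma this setting gave 3 higher and 22 lower. Upper quartile scaling gave 18 higher and 7 lower for sgRNA2 against control in vehicle (Cdk1 0.10, Birc5 0.14, Cenpe 0.11, Kif2c 0.13, Tpx2 0.13, Aspm 0.019, Ect2 0.16), 5 lower between sgRNAs in vehicle, 10 higher between sgRNAs in IFN-gamma, and Aurkb at -0.10 for IFN-gamma in sgRNA2-labelled cells.

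The length offset, also chosen after seeing the data, gave 10 higher between sgRNAs in IFN-gamma. IFN-gamma responses came to 0.19 for Cdc20 in control, and in sgRNA1-labelled cells to 0.14 for Aurka, -0.054 for Cenpf, -0.30 for Aspm, -0.014 for Prc1 and 0.024 for Ube2c. In vehicle, sgRNA1 against control came to -0.0039 for Ccnb2, 0.14 for Prc1, -0.12 for Cdc20 and -0.13 for Ube2c, and sgRNA2 to 0.017 for Aspm and -0.056 for Cdc20. Aurka came to -0.032 for sgRNA1 in IFN-gamma. RLE scaling and no filter each gave 2 higher for IFN-gamma in sgRNA2-labelled cells. RLE, upper quartile, no filter, DESeq2 and the length offset each gave 1 higher for the response of sgRNA1 minus control.

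Leaving out 1 library at a time, counts of higher genes ran from 1 to 2 for IFN-gamma in sgRNA2-labelled cells and for the response of sgRNA1 minus control, from 3 to 5 for that of sgRNA2 minus control, from 2 to 6 for sgRNA1 against control in IFN-gamma, and between sgRNAs from 9 to 14 in vehicle and 3 to 5 in IFN-gamma. The other 18 counts stayed within 1.5 times. A replicate block by label number gave 20 higher for IFN-gamma in control (19 without it) and changed the call of 3 of 408 single values, 1 gained and 2 lost. The lowest count of any of the 34 in a library was 858, and each group had 2 libraries; which of depth and number of libraries limits the calls more was not compared.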
